A study of Mus musculus with 12 samples.

Results

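NR4A, EGR, and NFAT factors are transcription factors that a T cell uses to read signals from its antigen receptor. The 9 genes followed here are *Nr4a1*, *Nr4a2*, *Nr4a3*, *Egr1*, *Egr2*, *Egr3*, *Nfatc1*, *Nfatc2*, and *Nfatc3*, taken by name from the 26608 genes listed for each library. All 9 had enough reads to be among the 16035 genes tested. RNA sequencing was performed on CD4+ T cells negative for YFP, which reports FOXP3 here, and 4 libraries were made in each of 3 groups. WT mice carried *Foxp3Cre* alone. DKO-moderate and DKO-severe mice carried *Foxp3Cre* with floxed *Tet2* and *Tet3* (*Tet2/3 fl/fl*), and the study divided them by the total number of cells in spleen and lymph nodes. All mice were 14 weeks old, all groups carried the Cre, and the cells of each mouse were pooled from spleen and from cervical and inguinal lymph nodes. The Cre is driven by *Foxp3*, which directs deletion of both *Tet* genes to cells that express or once expressed *Foxp3*, though the study names leaky Cre activity during blood cell development as possible. In both DKO groups the study regards the sorted cells as a mixture of ex-Treg cells and conventional CD4+ T cells, the latter mostly activated or memory cells. The counts do not separate these. The WT cells were mostly naive T cells by the study's account.

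Engagement of the antigen receptor opens calcium channels, and calcium activates calmodulin and the phosphatase calcineurin, which dephosphorylates NFAT proteins and lets them enter the nucleus. *Nfatc2* and *Nfatc3* encode NFAT proteins that resting T cells already hold, while *Nfatc1* is itself induced after activation. EGR genes are immediate early genes that the ERK pathway and serum response factor (SRF) switch on, and NR4A genes encode orphan nuclear receptors induced within a short time of stimulation. EGR2, EGR3, and NR4A proteins are also known for restraining T cells that are stimulated without costimulation or for a long time.

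The genes lie on 7 chromosomes of GRCm38, the assembly also called mm10, in the GENCODE annotation. *Nr4a1* is at chromosome 15 from 101254269 to 101274795, *Nr4a2* at chromosome 2 from 57106830 to 57124003, *Nr4a3* at chromosome 4 from 48045153 to 48086447, and *Egr2* at chromosome 10 from 67535475 to 67542188. *Egr3* is at chromosome 14 from 70077203 to 70082614, *Nfatc2* at chromosome 2 from 168476410 to 168601657, and *Nfatc3* at chromosome 8 from 106058840 to 106130537. RefSeq sequence of GRCm38.p6 before the start site was at hand for 6 of the 9 genes. It is printed for the NR4A genes, of which *Nr4a2* alone differed between groups in the edgeR test over all 12 libraries, and for the third RefSeq start site of *Egr2*, the gene with the largest rise of the 9. Each stretch holds the 250 bases before the start site that are in no annotated exon of the gene, which leaves 98 bases for *Nr4a3*. The stretches of *Nr4a1* and *Egr2* lie in introns of longer annotated transcripts. Capitals mark the core of the cAMP response element (CRE), TGACG on either strand, and, in *Egr2*, a CArG box, the motif of SRF.
Nr4a1, chr15:101266596-101266845 (plus strand): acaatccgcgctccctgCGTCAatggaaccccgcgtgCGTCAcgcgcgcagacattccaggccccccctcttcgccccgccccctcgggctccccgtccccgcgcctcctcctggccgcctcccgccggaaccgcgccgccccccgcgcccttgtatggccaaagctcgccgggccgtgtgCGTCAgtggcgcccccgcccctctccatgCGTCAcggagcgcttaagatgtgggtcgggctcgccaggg
Nr4a2, chr2:57124004-57124253 (minus strand): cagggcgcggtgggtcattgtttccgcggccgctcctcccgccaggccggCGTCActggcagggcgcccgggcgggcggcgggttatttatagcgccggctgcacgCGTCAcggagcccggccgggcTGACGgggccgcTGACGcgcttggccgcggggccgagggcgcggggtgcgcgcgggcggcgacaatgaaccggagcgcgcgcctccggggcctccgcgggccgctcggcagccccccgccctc
Nr4a3, chr4:48045055-48045152 (plus strand): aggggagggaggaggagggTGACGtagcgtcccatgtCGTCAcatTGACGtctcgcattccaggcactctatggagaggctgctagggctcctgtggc
Egr2, chr10:67537619-67537868 (plus strand): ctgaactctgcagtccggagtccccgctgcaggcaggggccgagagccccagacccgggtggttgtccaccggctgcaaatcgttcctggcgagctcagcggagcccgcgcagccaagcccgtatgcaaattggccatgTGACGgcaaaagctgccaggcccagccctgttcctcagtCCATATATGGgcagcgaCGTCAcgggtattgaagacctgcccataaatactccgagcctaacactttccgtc

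The 250 bases of *Nr4a1*, *Nr4a2*, and *Nr4a3* each held 4 matches to TGACG, of which 3 fall in the printed stretch of *Nr4a3*. Of 32851 mouse promoter windows of the same length, 17.8% held at least 1 such match and 0.137% held at least 4. *Egr2* held 2 matches, and its CArG box spans bases -72 to -63 before the start site. A CArG box was present in 1.47% of all windows. The other motifs searched, on both strands, were the full CRE TGACGTCA, which contains the core on each strand and was in 1.55% of windows, the AP-1 motif TGANTCA (6.75%), the NFAT core GGAAAA (20.4%), the NR4A motif AAAGGTCA (1.34%), and the EGR motif GCGNGGGCG (4.7%). An EGR match was found before *Nr4a1* and *Nr4a2*, and an NFAT core before the second start site of *Egr2*. A match is a description of the letters and does not show that a factor binds there.

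Each library held 29254260 to 42133536 reads on genes. Levels are given as CPM, the reads of a gene relative to the TMM-scaled total of its library. The quasi-likelihood test of edgeR compared the groups, and FDR stands for its p-value after Benjamini-Hochberg adjustment over the 16035 genes, with a threshold of 0.05, and likewise for DESeq2 and limma voom where these are named. Differences are fitted log2 fold changes, here called log2 ratios. SE is their standard error, taken as the size of the log2 ratio over the square root of the F statistic of the edgeR test. Genes that mark T cells summed to 3491 to 4599 CPM in every library, so each held T cell RNA. This sum does not show how pure the sorted cells were or that they lacked YFP. Genes of other cell types varied between libraries. The summed level of 10 neutrophil genes was 0.0273 to 1.78 CPM in WT, with *Elane* and *Ly6g* at 0 in all WT libraries, and 0.186 to 8.4 CPM in DKO-moderate. It was 2043, 752.8, 21.9, and 9.41 CPM in DKO-severe 1 to 4. The summed level of 8 B cell genes was 6.81 to 15.2 CPM in WT except in WT 3, at 212.4 CPM, 21.5 to 47.5 CPM in DKO-moderate, and 70.4 to 383 CPM in DKO-severe. For 8 monocyte and macrophage genes it was 9.19 to 15.7 CPM in WT except in WT 3, at 181.6 CPM, 16.2 to 54.6 CPM in DKO-moderate, and 87.7 to 483 CPM in DKO-severe. Y-linked genes were near 0 in 1 WT, 2 DKO-moderate, and 1 DKO-severe library, and a term for them in the fit changed no call of the 9 genes.

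Of the 9 genes, 4 passed the threshold in DKO-severe against WT, all of them higher: *Nr4a2*, *Egr2*, *Egr3*, and *Nfatc1*. Over all tested genes, 52.6% passed in this comparison, 26.6% higher and 25.9% lower in DKO-severe. The share of the 9 genes that passed was therefore close to the background, and the description below turns on which genes moved and by how much. In DKO-moderate against WT, *Egr2* and *Nfatc1* passed, both higher, against 17.1% of all genes, 12.3% higher and 4.74% lower. In DKO-severe against DKO-moderate only *Nr4a2* passed, higher in DKO-severe, against 20.1% of all genes, 9.41% higher and 10.7% lower. At an unadjusted p under 0.05, the counts were 5, 3, and 2 of the 9 genes. Every gene past the adjusted threshold is also past this one, so at least 52.6%, 17.1%, and 20.1% of all genes were. The exact shares were not counted, and these counts of the 9 genes are not read as a result. The median log2 ratio of the 9 genes was 0.39, 0.18, and 0.25 in these comparisons, beside -0.005, 0, and -0.03 for all tested genes. The comparisons of both DKO groups with WT share the WT libraries, so they are not independent of each other. The labels do not say that libraries of a group come from separate mice, so p-values measure the spread between these libraries.

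**Figure D1:**
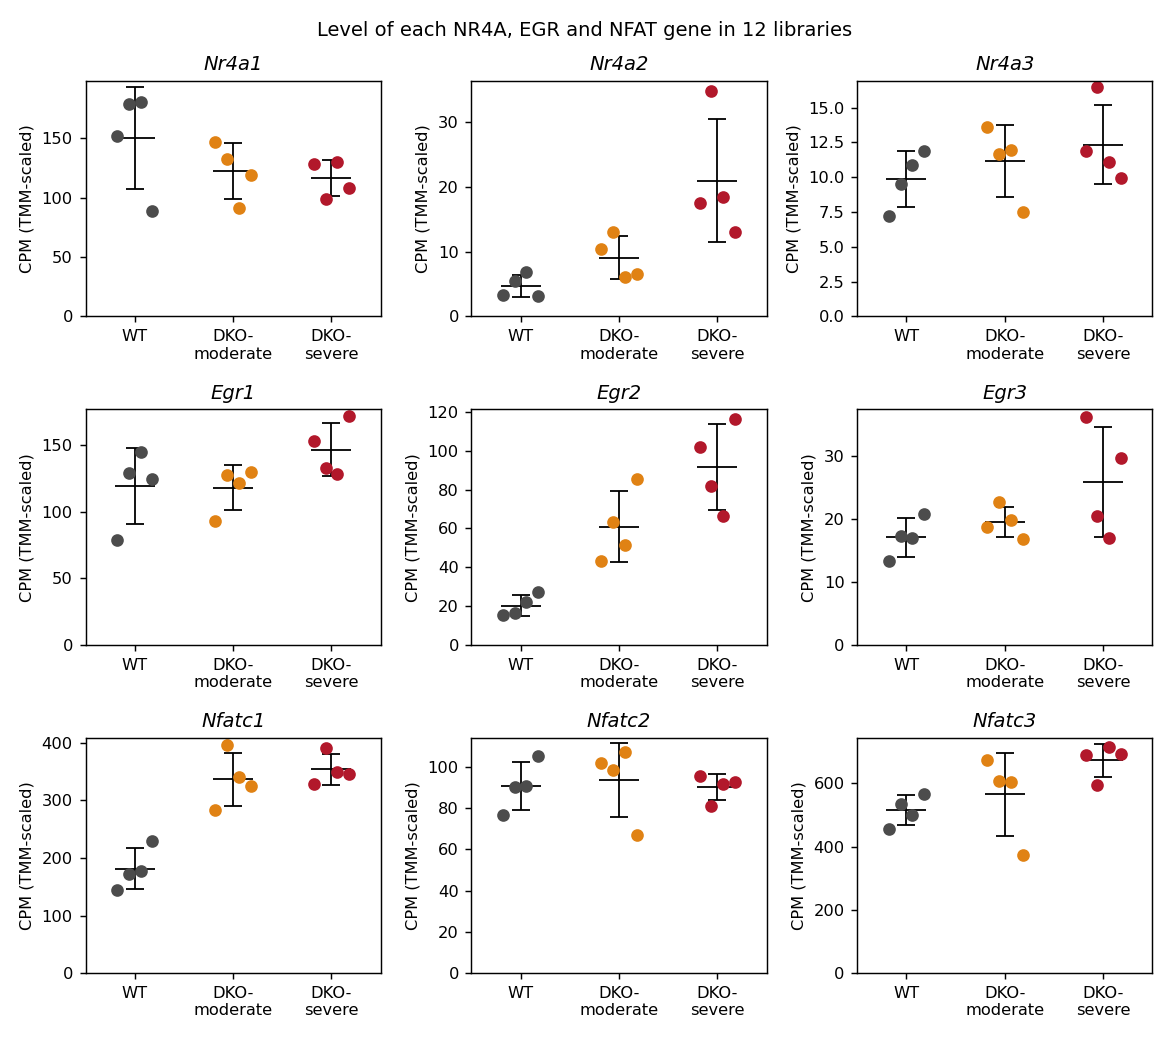
CPM of each of the 9 genes on a linear axis that starts at 0, with 1 point per library (left to right, libraries 1 to 4 of each group), the mean as a horizontal line, and the SD as a bar (n = 4). *Nr4a2*, *Egr2*, *Nfatc1*, and *Nfatc3* show DKO-severe libraries that all lie above the WT libraries. Over all tested genes, 51.9% had groups that did not overlap in this comparison. The points of *Nr4a1*, *Egr1*, and *Nfatc2* overlap between groups.

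The NR4A family was dominated by *Nr4a1*, but *Nr4a2* was its only member past the threshold of edgeR over all 12 libraries, in any comparison. *Nr4a2* (NURR1) was at 3.28, 5.42, 6.81, and 3.23 CPM in WT libraries 1 to 4. In DKO-moderate it was at 10.4, 13.1, 6.09, and 6.54 CPM, and in DKO-severe at 17.6, 34.8, 18.5, and 13.0 CPM. All DKO-severe libraries lay above all WT libraries, and the lowest of them was close to the highest DKO-moderate library. The mean of *Nr4a2* was 4.68 ± 1.75 CPM (SD, n = 4) in WT, against 9.03 ± 3.32 in DKO-moderate and 20.9 ± 9.51 in DKO-severe. In DKO-severe against WT it had a log2 ratio of 2.16 (SE 0.37, edgeR FDR = 0.000466), with an exact permutation p of 0.0286, the smallest that 4 libraries against 4 allow. Groups that do not overlap were found for 51.9% of all tested genes in this comparison. Against WT, *Nr4a2* in DKO-moderate had a log2 ratio of 0.95 (SE 0.36, edgeR FDR = 0.091), and DKO-moderate 3 and 4 fell within the range of WT. DESeq2 placed it past the threshold (0.96, FDR = 0.0421). DKO-severe was higher than DKO-moderate by 1.21 on the log2 scale (SE 0.36, edgeR FDR = 0.0331), with groups that overlapped only through DKO-moderate 2 and DKO-severe 4.

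The DKO-severe library with the highest *Nr4a2*, DKO-severe 2, also had the highest summed B cell level. With the mean levels of the neutrophil and B cell lists as terms of the fit (both marker terms), the log2 ratio of *Nr4a2* in DKO-severe against WT was 1.43 (edgeR FDR = 0.0619) and that against DKO-moderate was 0.46 (edgeR FDR = 0.627), neither past the threshold. In the 9 libraries left without WT 3, DKO-severe 1, and DKO-severe 2, which had the highest neutrophil and monocyte sums of their groups, the log2 ratio against WT was 1.99 (edgeR FDR = 0.00254) and that against DKO-moderate 0.80 (edgeR FDR = 0.151), while DKO-moderate against WT passed at 1.18 (edgeR FDR = 0.0358). Both marker terms lowered the share of all genes called in DKO-severe against WT to 20.5%, and to 1.22% between both DKO groups. This set of libraries was chosen after the data were seen. In DKO-severe 3 and 4, which had the lowest neutrophil sums of their group, *Nr4a2* was at 18.5 and 13.0 CPM, above all WT libraries. Their B cell sums (70.4 and 154.4 CPM) and monocyte and macrophage sums (148.3 and 87.7 CPM) were above those of WT 1, 2, and 4. Which cells the *Nr4a2* reads came from was not tested. Without DKO-moderate 1, 3, or 4 or DKO-severe 1, 2, or 3, the difference between both DKO groups did not pass either, with edgeR FDRs up to 0.093 and log2 ratios down to 0.89.

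*Nr4a1* (NUR77), the gene behind a widely used reporter of antigen receptor signals, was at 152, 179, 181, and 89.0 CPM in WT. It was at 147, 133, 91.2, and 119 CPM in DKO-moderate and 129, 99.0, 130, and 109 CPM in DKO-severe. WT 4 was the lowest of all 12 libraries and the other WT libraries were the highest, so the groups overlapped. *Nr4a1* had a log2 ratio of -0.36 in DKO-severe against WT (SE 0.21, edgeR FDR = 0.159) and -0.30 in DKO-moderate against WT (edgeR FDR = 0.349). Without WT 4 the log2 ratio in DKO-severe was -0.55 and passed the threshold (edgeR FDR = 0.0139), so a single WT library decided whether *Nr4a1* was called.

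*Nr4a3* (NOR1) was counted at 7.24, 9.49, 10.9, and 11.9 CPM in WT libraries 1 to 4, 13.6, 11.6, 11.97, and 7.52 CPM in those of DKO-moderate, and 11.9, 16.4, 11.1, and 9.91 CPM in those of DKO-severe. The ranges overlapped in all comparisons, and the log2 ratio in DKO-severe against WT was 0.32 (SE 0.22, edgeR FDR = 0.241). Per kilobase of exon, *Nr4a1* made up 93.5 ± 2.36% (SD, n = 4) of the reads of its family in WT, against 89.5 ± 1.95% in DKO-moderate and 82.1 ± 7.18% in DKO-severe. For *Nr4a2* this share was 1.78% to 3.05% in WT libraries, 4.39% to 7.49% in those of DKO-moderate, and 8.96% to 21.7% in those of DKO-severe. These shares are descriptions without a test.

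In the EGR family, *Egr2* had the largest rise and was already higher in DKO-moderate. *Egr2*, which with EGR3 is linked to anergy and to the control of Tfh cells, was at 15.5, 16.5, 21.96, and 27.1 CPM in WT. It was at 43.0, 63.2, 51.7, and 85.4 CPM in DKO-moderate and 102, 82.1, 66.3, and 116 CPM in DKO-severe. Every DKO library was above the highest WT library, and the ranges of both DKO groups overlapped. *Egr2* had a log2 ratio of 2.18 in DKO-severe against WT (SE 0.25, edgeR FDR = 3.43e-05) and 1.58 in DKO-moderate against WT (SE 0.25, edgeR FDR = 0.00139). The exact permutation p was 0.0286 in both comparisons. In DKO-moderate against WT, 24.8% of all tested genes had groups that did not overlap.

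Between both DKO groups *Egr2* differed by 0.59 on the log2 scale (SE 0.24, edgeR FDR = 0.0982). DESeq2 (0.66, FDR = 0.036), limma voom (0.76, FDR = 0.0141), and edgeR in the absence of DKO-moderate 4 (0.83, FDR = 0.0297) called this difference. It did not pass with both marker terms (0.42, edgeR FDR = 0.588) or in the 9 libraries (0.59, edgeR FDR = 0.248). Over the 12 fits that each left out 1 library, its edgeR FDR ran from 0.0297 to 0.233. In this comparison limma voom called 38.2% of all genes, against 20.1% in the main fit. The rise of *Egr2* in DKO-severe against WT was as large in the 9 libraries named above, at 2.21 (edgeR FDR = 0.000982).

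*Egr1*, a common early marker of ERK activity on chromosome 18 (34859823 to 34864984), was at 78.8, 129, 145, and 125 CPM in WT and at 93.3, 127, 122, and 130 CPM in DKO-moderate. In DKO-severe it was at 153, 133, 128, and 172 CPM, partly above and partly within the range of WT. Its log2 ratio against WT was 0.30 in DKO-severe (SE 0.17, edgeR FDR = 0.166). Scaled by library size only, it was 0.48 and passed the threshold (edgeR FDR = 0.0443), a scaling that moved the median of all genes by 0.183.

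*Egr3* was counted at 13.3, 17.3, 17.0, and 20.8 CPM in WT libraries 1 to 4, 18.8, 22.6, 19.9, and 16.8 CPM in those of DKO-moderate, and 36.2, 20.5, 16.9, and 29.6 CPM in those of DKO-severe. DKO-severe 1 and 4 were above all other libraries, and DKO-severe 2 and 3 were within the range of WT. Fitted against WT, DKO-severe was higher by 0.59 on the log2 scale (SE 0.22, edgeR FDR = 0.0385), while the exact permutation p on CPM was 0.2. The call was lost without any of WT 1, 2, or 3 or DKO-severe 1 or 4 (edgeR FDR up to 0.135), in limma voom (0.44, FDR = 0.0841), in the 9 libraries (0.44, edgeR FDR = 0.188), and with both marker terms (0.23, edgeR FDR = 0.701). DKO-severe 1 had the highest neutrophil sum and DKO-severe 4 the lowest of its group, and the part of these cells in the level of *Egr3* was not otherwise tested.

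Per kilobase of exon, *Egr1* made up 68.6% to 76.6% of the reads of the EGR family in WT, against 50.0% to 57.9% in DKO-moderate and 47.1% to 55.0% in DKO-severe. *Egr2* took 16.5 ± 3.02% (SD, n = 4) in WT, against 36.3 ± 4.92% in DKO-moderate and 40.9 ± 2.35% in DKO-severe. Stacked bars by library show these shares.

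**Figure D2:**
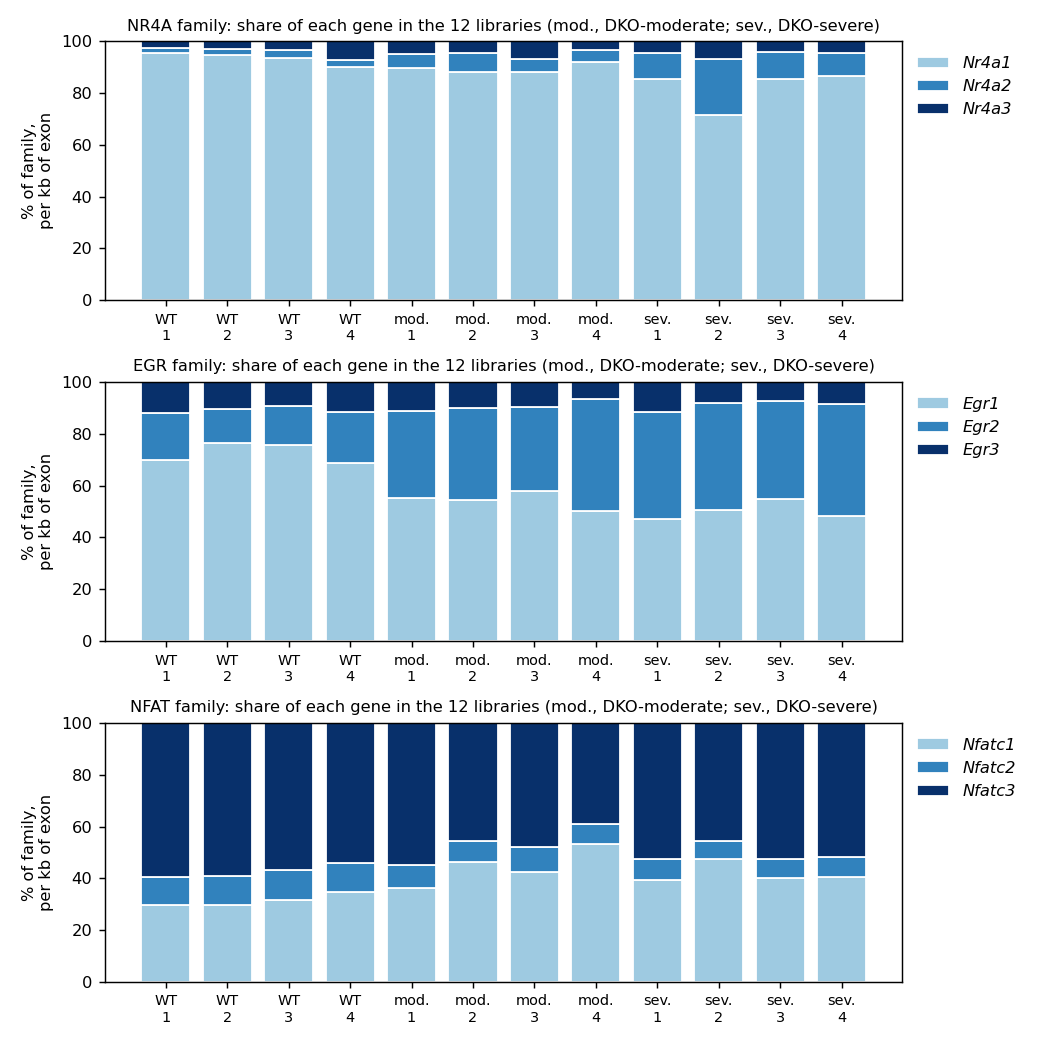
Share of each gene in the summed level of its family, per kilobase of exon, in each library (bars from 0 to 100%, libraries 1 to 4 of each group). *Egr2* takes 13.0% to 19.7% of the EGR family in the WT libraries and 37.6% to 43.1% in DKO-severe, and the share of *Nfatc1* is 29.6% to 34.6% in WT and 39.3% to 47.3% in DKO-severe.

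Among the NFAT genes, *Nfatc1* was higher in both DKO groups by about the same amount. The gene lies on chromosome 18 from 80606205 to 80713071. *Nfatc1* was counted at 145, 172, 178, and 230 CPM in WT libraries 1 to 4, 284, 395, 340, and 324 CPM in those of DKO-moderate, and 328, 391, 349, and 346 CPM in those of DKO-severe. All 8 DKO libraries were above all 4 WT libraries. The log2 ratio of *Nfatc1* was 0.96 in DKO-severe against WT (SE 0.14, edgeR FDR = 0.000139) and 0.89 in DKO-moderate against WT (SE 0.14, edgeR FDR = 0.00134), with an exact permutation p of 0.0286 in each. The difference between both DKO groups was 0.07 (SE 0.14, edgeR FDR = 0.73). Over the 12 fits that each left out 1 library, the log2 ratio in DKO-severe against WT ran from 0.87 to 1.10.

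*Nfatc3*, the NFAT gene with the highest level, was counted at 458, 536, 499, and 566 CPM in WT libraries 1 to 4, 674, 609, 603, and 375 CPM in those of DKO-moderate, and 690, 594, 714, and 693 CPM in those of DKO-severe. All DKO-severe libraries lay above all WT libraries, and DKO-moderate 4 was the lowest library of all. *Nfatc3* differed between DKO-severe and WT by 0.39 on the log2 scale (SE 0.15, edgeR FDR = 0.0508, exact permutation p = 0.0286), just outside the threshold. DESeq2 (0.47, FDR = 0.00788), limma voom (0.39, FDR = 0.00644), and edgeR on the libraries of both groups alone (0.44, FDR = 0.00209) placed *Nfatc3* past it. With both marker terms (0.565, edgeR FDR = 0.168) and in the 9 libraries (0.44, edgeR FDR = 0.13) it did not pass. Over the 12 fits that each left out 1 library, its edgeR FDR ran from 0.00127 to 0.127.

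*Nfatc2* was counted at 76.5, 90.0, 90.6, and 105 CPM in WT libraries 1 to 4, 102, 98.4, 107, and 67.2 CPM in those of DKO-moderate, and 95.8, 81.1, 91.6, and 92.5 CPM in those of DKO-severe. The DKO-severe libraries all fell within the range of WT, and the log2 ratio was -0.01 (SE 0.14, edgeR FDR = 0.977), with a sign that turned under other scalings. DKO-moderate 4 was the lowest library for *Nr4a3*, *Nfatc2*, and *Nfatc3* in its group and the highest for *Egr2*.

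**Figure D3:**
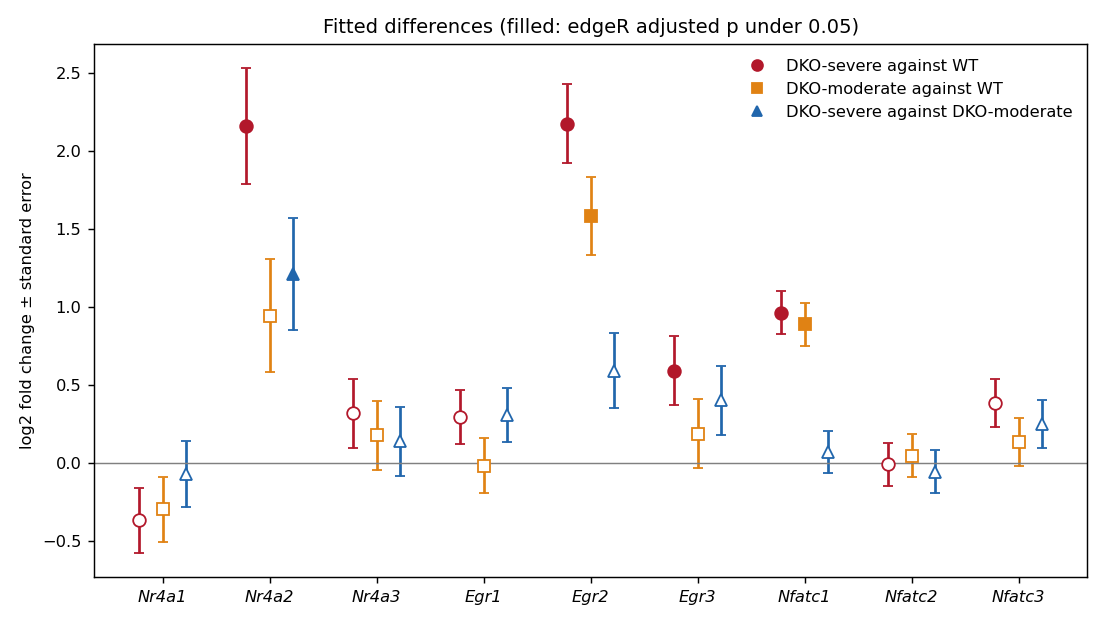
Log2 ratios of the 9 genes in the 3 comparisons with bars of 1 standard error, filled where the edgeR adjusted p is under 0.05. *Egr2* (2.18) and *Nr4a2* (2.16) have the largest differences of DKO-severe from WT, *Nfatc1* is nearly as high in DKO-moderate (0.89) as in DKO-severe (0.96), and *Nr4a2* is the only filled symbol in DKO-severe against DKO-moderate (1.21).

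Levels of different genes can be compared only per kilobase of exon. On that scale *Nfatc3* was the most abundant of the 9 genes in each group, with a mean of 43.9 CPM per kilobase in WT, against 48.2 in DKO-moderate and 57.4 in DKO-severe. In WT it was followed by *Nr4a1* (42.8), *Egr1* (26.6), and *Nfatc1* (24.2), and the ranges of neighbours in this order overlapped. Without overlap with *Nfatc1*, then came *Nfatc2* (8.56), *Egr2* (5.97), *Egr3* (3.88), *Nr4a3* (1.65), and *Nr4a2* (1.15), and of these neighbours only *Egr3* and *Nr4a3* did not overlap. In DKO-severe *Nfatc1* (47.3) was second and overlapped with *Nfatc3* but not with *Nr4a1* (33.3), which was followed by *Egr1* (32.7) and *Egr2* (27.0), each overlapping with the next. *Egr2* stood above *Nfatc2* (8.53) without overlap in both DKO groups. *Nr4a2* (5.16) was above *Nr4a3* (2.06) without overlap in DKO-severe, whereas in WT and DKO-moderate their ranges overlapped. The order of genes and the family shares depend on these exon lengths, and which transcripts the cells made was not tested.

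The genes whose pattern over the 12 libraries was most like that of a member were found among 9996 genes with a mean of at least 5 CPM, by the root mean square difference of log2 CPM after each gene's mean was subtracted. For *Nfatc1* these were *Itgal* (0.116), *Prkca* (0.122), and *Lpxn* (0.128). For *Egr2* they were *Ttc39c* (0.215), *Slc25a13* (0.219), and *Gdpd5* (0.222), with log2 ratios in DKO-severe against WT from 2.01 to 2.43. For *Nr4a2* they were *Pros1* (0.38), *Chsy1* (0.411), and *Myo1c* (0.419), a looser match than for *Egr2*. The root mean square of log2 CPM around the gene's own mean was 0.992 for *Nr4a2* and 0.977 for *Egr2*, but 0.329 for *Nr4a1*. Differences of members that varied less are thus not on the same scale. *Nfkbia* (0.19), which encodes an inhibitor of NF-kappaB, was closest to *Nr4a1*. The closest genes to the others were *Pogk* (0.141) for *Nr4a3*, *Brp44l* (0.163) for *Egr1*, *Atg7* (0.209) for *Egr3*, *Xpr1* (0.068) for *Nfatc2*, and *Ctdspl2* (0.083) for *Nfatc3*.

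Further genes of these families and of the signal path around them were counted by list. In DKO-severe against WT, 26.6% of all tested genes were higher and 25.9% lower, the background for each list below. With both marker terms these shares were 14.3% and 6.18%. No list was tested against these shares. Of the 5 tested genes among further family members and EGR corepressors, 2 rose and 1 fell in DKO-severe against WT (median 0.31). *Egr4* had 0, 5, 4, and 13 reads in WT libraries 1 to 4, 43, 52, 64, and 106 in DKO-moderate, and 119, 63, 105, and 184 in DKO-severe. Its log2 ratio was 4.29 in DKO-severe (SE 0.70, edgeR FDR = 0.000342) and 3.47 in DKO-moderate (SE 0.68, edgeR FDR = 0.00534), so *Egr4* moved in the same comparisons as *Egr2*, from far fewer reads. *Nab1*, a corepressor of EGR proteins, rose by 0.46 on the log2 scale (edgeR FDR = 0.00131) in DKO-severe, and its relative *Nab2* was at -0.03 (edgeR FDR = 0.888). *Nfatc2ip*, whose product binds NFATC2, fell by 0.59 on the log2 scale (edgeR FDR = 0.000505). With both marker terms neither *Nab1* (0.47, edgeR FDR = 0.0595) nor *Nfatc2ip* (-0.55, edgeR FDR = 0.0702) passed. *Nfat5*, an NFAT relative that calcineurin does not control, was at 0.31 (edgeR FDR = 0.29). *Nfatc4* had too few reads to be tested.

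Upstream of NFAT, the lists held genes that moved in both directions. Of 8 calcium entry genes, 2 rose and 3 fell in DKO-severe against WT (median -0.003), from *Orai3*, a calcium channel subunit, at 1.01 (edgeR FDR = 0.000221) to *Itpr3*, a calcium release channel, at -0.85 (edgeR FDR = 0.00355). With both marker terms 2 of the 8 passed, both higher, and *Itpr3* was at -0.54 (edgeR FDR = 0.315). Of 14 tested genes of calcineurin, calmodulin, and their regulators, 5 rose and 3 fell (median 0.19). *Rcan1*, a calcineurin regulator that NFAT is known to induce, had a log2 ratio of 1.19 (SE 0.25, edgeR FDR = 0.00181), and *Rcan3*, of the same family, fell by 1.15 (edgeR FDR = 5.73e-06). *Rcan1* was at 12.3 to 14.3 CPM in WT, 12.7 to 25.7 CPM in DKO-moderate, and 19.5 to 42.7 CPM in DKO-severe. Of 5 kinases that phosphorylate NFAT, none rose and 3 fell (median -0.58), with the largest fall in *Dyrk2* (-1.21, edgeR FDR = 7.17e-05). At an unadjusted p under 0.05 the number that rose was also 0, as it was in DESeq2 and limma voom.

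Upstream of EGR genes, 4 of 8 genes of SRF, its cofactors, and ERK rose and 2 fell (median 0.31). *Elk3*, an SRF partner, rose by 1.15 on the log2 scale (edgeR FDR = 5.26e-05), and *Mkl1*, an SRF coactivator, fell by 0.84 (edgeR FDR = 0.000446). With both marker terms, 1 of the 8 genes passed, in the direction of a rise, with *Mkl1* at -0.78 (edgeR FDR = 0.0501). Among calcineurin genes 1 was then higher and 1 lower, and *Rcan1* was at 1.17 (edgeR FDR = 0.0668).

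Early response genes outside the 9 members were mostly lower in DKO-severe than in WT, whereas the 4 members past the threshold were higher. Among the members that did not pass, *Nr4a1* also had a negative log2 ratio (-0.36). Of 21 such genes, 16 were lower in DKO-severe than in WT and 3 higher, with a median log2 ratio of -0.997, beside the 25.9% of all tested genes that were lower. In DKO-moderate against WT, 4 were lower and 2 higher (median -0.41), beside 4.74% and 12.3% of all tested genes. In DKO-severe against DKO-moderate, 8 were lower and 2 higher (median -0.55), beside 10.7% and 9.41% of all tested genes. *Jun*, a subunit of AP-1 and partner of NFAT on DNA, was counted at 380, 503, 364, and 396 CPM in WT libraries 1 to 4, 234, 178, 242, and 85.9 CPM in those of DKO-moderate, and 17.1, 46.8, 80.8, and 44.0 CPM in those of DKO-severe. The 3 groups of *Jun* did not overlap, and its log2 ratio in DKO-severe against WT was -3.12 (SE 0.42, edgeR FDR = 9.69e-05). In DKO-severe against DKO-moderate, 21.3% of all tested genes had groups that did not overlap, and none of the 9 members did.

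*Fos*, which encodes a partner of JUN in AP-1, was at 280, 402, 458, and 516 CPM in WT libraries and 64.3, 75.8, 223, and 178 CPM in DKO-severe libraries, for a log2 ratio of -1.61 (SE 0.39, edgeR FDR = 0.00426). *Myc*, a growth regulator induced on activation, was at -0.73 (edgeR FDR = 0.00413). *Cd69*, an early surface marker of activation, was at -0.74 (SE 0.28, edgeR FDR = 0.0445) with groups that overlapped, and this call was lost in most alternatives. *Cd69* did not pass in limma voom (-0.61, FDR = 0.102), under either other scaling, with the replicate block, with both marker terms (-0.63, edgeR FDR = 0.38), in the 9 libraries (-0.50, edgeR FDR = 0.284), or in 10 of the 12 fits that left out 1 library. The largest rise of the list was in *Irf4*, whose product grows with antigen receptor signal strength, at 24.2 to 41.5 CPM in WT, 89.3 to 172 CPM in DKO-moderate, and 200 to 339 CPM in DKO-severe. Its log2 ratio in DKO-severe against WT was 3.06 (SE 0.25, edgeR FDR = 6.47e-06), and 3.00 with both marker terms (edgeR FDR = 0.00103). *Irf4* is also highly expressed in plasma cells, and 4 plasma cell genes summed to 0.575 to 1.56 CPM in WT except in WT 3, at 88.4 CPM, 2.44 to 24.9 CPM in DKO-moderate, and 49.4 to 191.5 CPM in DKO-severe. The part of these cells in the level of *Irf4* was not tested. With both marker terms, 6 of the 21 genes were lower and 2 higher, beside 6.18% and 14.3% of all genes, and neither *Fos* (-0.43, edgeR FDR = 0.555) nor *Myc* (-0.67, edgeR FDR = 0.186) passed. In the 9 libraries named above, 13 were lower and 2 higher, beside 19.7% and 23.4% of all genes.

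**Figure D4:**
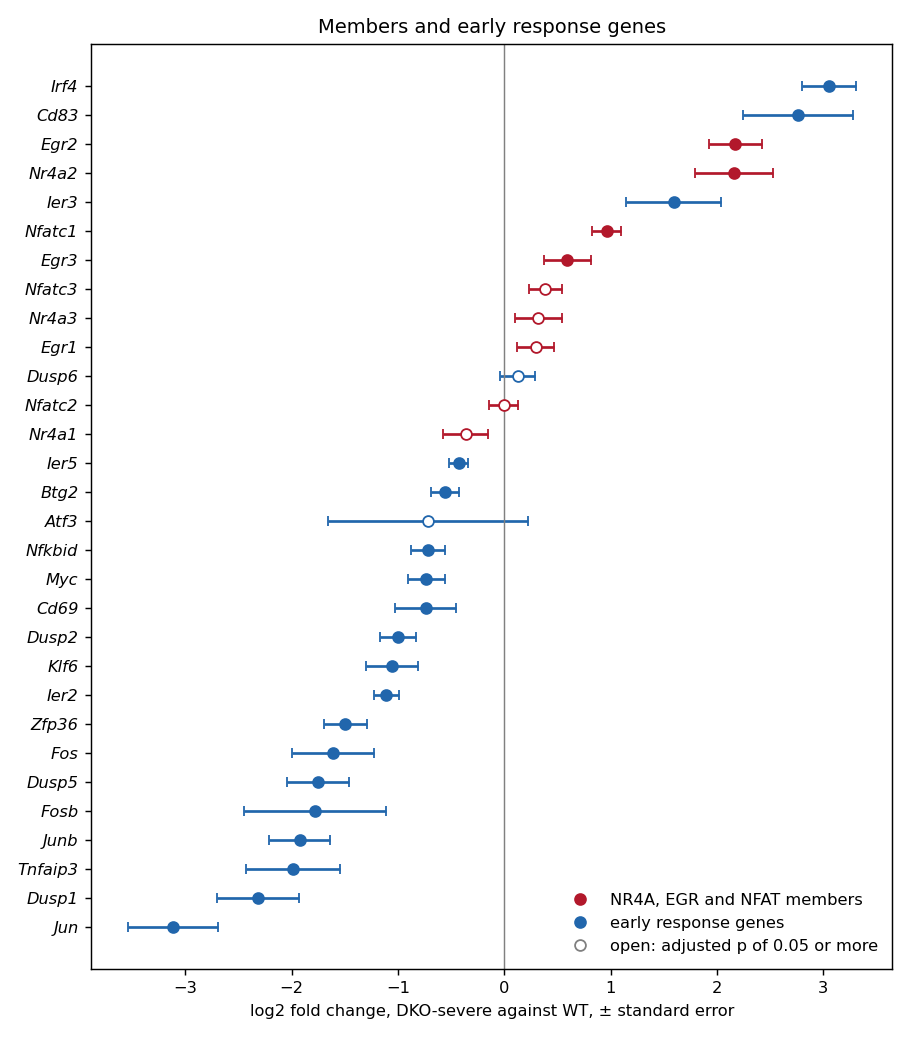
Log2 ratios in DKO-severe against WT, with bars of 1 standard error, of the 9 members (red) and of 21 other early response genes (blue), ordered by value and filled where the edgeR adjusted p is under 0.05. *Irf4* (3.06) is at the top, *Egr2* and *Nr4a2* follow below *Cd83*, and 16 filled blue points lie below 0, down to *Jun* (-3.12).

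Of 10 heat shock genes, which rise when cells are stressed during handling, none rose and 1 fell in DKO-severe against WT, *Hspe1* at -0.44 (edgeR FDR = 0.0268). This call was lost under both other scalings (edgeR FDR = 0.0553 with DESeq2's size factors and 0.149 with library size alone), with both marker terms (-0.22, edgeR FDR = 0.584), in the 9 libraries, and in 6 of the 12 fits that left out 1 library. The number higher was also 0 in DESeq2 and at an unadjusted p under 0.05, and 1 in limma voom. Their summed level was 4038 to 7808 CPM in WT, 4636 to 8627 CPM in DKO-moderate, and 4905 to 5734 CPM in DKO-severe. These ranges overlapped, with DKO-moderate 1 and 3 highest, at 8419 and 8627 CPM. In DKO-moderate against WT none of the 10 genes was called (median log2 ratio 0.44), beside 17.1% of all tested genes. In DKO-severe against DKO-moderate none rose and 1 fell (median -0.68), beside 9.41% and 10.7% of all tested genes. Genes of naive T cells summed to 5316 to 6010 CPM in WT, 2825 to 4528 CPM in DKO-moderate, and 1816 to 2467 CPM in DKO-severe. In bulk libraries, fewer cells of a type and less RNA of a gene per cell cannot be told apart, for the members as for these lists.

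Among genes known to follow these factors, inhibitory receptors and TOX factors linked to NFAT and NR4A proteins rose in DKO-severe against WT in 8 of 8 genes, with a median log2 ratio of 3.71, beside the 26.6% of all tested genes that were higher. The largest rise was in *Lag3*, an inhibitory receptor, at 6.44 to 34.6 CPM in WT, 186 to 458 CPM in DKO-moderate, and 513 to 953 CPM in DKO-severe. Its log2 ratio was 5.63 (SE 0.55, edgeR FDR = 1.31e-05). In DKO-moderate against WT, 6 of the 8 genes were higher, beside 12.3% of all tested genes. With both marker terms 6 were higher in DKO-severe, beside 14.3% of all tested genes. The study had already reported *Pdcd1* and *Tox2* of this list, and *Il21* named below, as Tfh genes raised in both DKO groups. The list was chosen with earlier results known, and whether its rise follows NFAT or NR4A proteins was not tested. Of 7 anergy genes and EGR2 and EGR3 targets, 1 was higher and 2 were lower in DKO-severe (median -0.09). Over all tested genes, 26.6% were higher and 25.9% lower. The higher gene was *Rnf128*, which encodes the anergy ubiquitin ligase GRAIL, at 1.90 to 5.002 CPM in WT, 36.0 to 70.4 CPM in DKO-moderate, and 57.4 to 76.8 CPM in DKO-severe. The log2 ratio of *Rnf128* was 4.49 in DKO-severe (SE 0.33, edgeR FDR = 4.31e-06) and 4.08 in DKO-moderate (SE 0.32, edgeR FDR = 6.94e-05). *Dgka*, a diacylglycerol kinase that limits signalling in anergic cells, fell by 1.30 on the log2 scale (edgeR FDR = 1.28e-05). Of 7 tested cytokine genes that NFAT controls, 3 were higher and none lower in DKO-severe (median 0.65), the largest rise being *Il21* at 5.06 (edgeR FDR = 1.63e-05). The number lower was also 0 in DESeq2 and at an unadjusted p under 0.05, 2 in limma voom, and 1 with both marker terms.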

How the data were processed

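CD4+ YFP(FOXP3)- T cells of 12 libraries in 3 groups were analysed, grouped by genotype and severity per the labels. The authors made directional libraries, aligned reads to mm10 with STAR 2.7.11, discarded reads with several positions, and ran htseq-count in reverse-stranded mode. The version of HTSeq and the annotation are not given in the sources used here. The deposited values are raw counts. Reads that match several genes are left out, and antisense genes are kept apart. Of the records in a library, 18.53% to 23.73% were assigned to no gene and were left out.

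Genes with at least 10 reads summed over a condition were tested (16035) with edgeR 4.0.16 in R 4.3.3, using TMM scaling and 1 quasi-likelihood fit over all 12 libraries. The study's methods name DESeq2, which was run as an alternative (1.42.0), as was limma voom (3.58.1). CPM and log2 fold changes were computed from the deposited counts. Likeness of patterns used log2 CPM with a prior count of 2. Permutation tests on CPM were exact and two-sided, with a smallest p of 0.029. Libraries of a group differed beyond sampling noise (chi-square per degree of freedom from 22.9 up), so none was a copy. Coordinates and exon lengths are from GENCODE for GRCm38, promoters from RefSeq for GRCm38.p6. Of 169 list genes, 5 had no match, and 6 matched by an older symbol only.

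The genes, the lists, and the tests were chosen with earlier results of these data known. Named genes are the 9 members, the largest rise and fall past the threshold in each list, *Nab1*, *Nab2*, *Rcan1*, *Egr4*, *Nfatc4*, *Nfat5*, *Fos*, *Jun*, *Myc*, *Cd69*, and the 3 genes nearest to each member, of which only the nearest is named for some. Scripts were tested on simulated data. Alternatives changed the test, scaling, filter, samples, threshold, or covariates, used the replicate number as a block, or left out each library. A fit without WT 3, DKO-severe 1, and DKO-severe 2 was chosen after seeing the data.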

Additional observations from a re-analysis of the deposited data

How the results depend on the processing

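Of the alternative values of the members' log2 fold changes, 545 kept their direction and their side of the threshold, 17 newly passed it, 19 no longer passed it, and 40 changed sign. *Egr2* and *Nfatc1* kept their calls against WT in every alternative at the threshold of 0.05.

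The number of members past the threshold in DKO-severe against WT was 2 with both marker terms, where 20.5% of all genes were called in place of 52.6%. In DKO-severe against DKO-moderate it was 2 in DESeq2, in limma voom, and with the replicate block, and 0 when only the groups compared were fitted, with the terms, in the 9 libraries chosen after seeing the data, and at an adjusted p under 0.01. Of all genes, 20.1% were called in that comparison, against 25.9% in DESeq2, 38.2% in limma voom, 14.5% with the block, 13.9% with only the groups compared, 1.22% with the terms, 13.3% in the 9 libraries, and 5.77% at an adjusted p under 0.01. Scaled by library size alone, 34.1% of all genes were higher and 17.2% lower in DKO-severe than in WT, against 26.6% and 25.9% with TMM. Between both DKO groups 11.8% were higher and 6.37% lower with that scaling and 11.4% and 7.71% with DESeq2's size factors, against 9.41% and 10.7%. Leaving out 1 library at a time, the number of members was 0 to 1 in DKO-severe against DKO-moderate, beside 10.3% to 23.0% of all genes. The replicate numbers were not treated as pairs, since residuals of same-numbered libraries had a median correlation of -0.034 (-0.272 to 0.208), against 0.013 for different numbers (-0.318 to 0.303). With the replicate block, *Egr3* in DKO-severe against WT did not pass (0.57, edgeR FDR = 0.0775), and *Egr2* in DKO-severe against DKO-moderate did (0.62, edgeR FDR = 0.0476).

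Sign changes occurred in values near 0. *Nfatc2* in DKO-severe against WT was at 0.0776 in DESeq2 and with its size factors, 0.00574 in limma voom, 0.178 with library size alone, 0.037 with the stricter filter, 0.0461 with only the groups compared, 0.104 with the terms, and 0.0256 in the 9 libraries. *Nab2* was at 0.055, 0.00956, 0.157, 0.0152, and 0.0235 in the first of these in turn, and 0.00766 in the 9 libraries. *Egr1* in DKO-moderate against WT was at 0.0701 with library size alone, 0.0245 with the terms, and 0.0928 in the 9 libraries. In DKO-severe against DKO-moderate, *Nr4a1* was at 0.00484 in DESeq2, 0.0295 in limma voom, 0.0049 with DESeq2's size factors, and 0.0334 with library size alone. *Nr4a3* was at -0.0766 in limma voom, -0.099 with the terms, and -0.0892 in the 9 libraries, *Nfatc1* at -0.00719 with the terms, and *Nfatc2* at 0.0202 in DESeq2 and with its size factors, 0.0555 with library size alone, and 0.0363 with the terms. Leaving out 1 library at a time, the range was -0.0786 to 0.0735 for *Nfatc2*, -0.101 to 0.132 for *Nab2* in DKO-severe against WT, and -0.17 to 0.0928 for *Egr1*, -0.0241 to 0.174 for *Nfatc2* in DKO-moderate against WT, and -0.187 to 0.0385 for *Nr4a1*, -0.00035 to 0.16 for *Nfatc1*, -0.148 to 0.0293 for *Nfatc2* in DKO-severe against DKO-moderate. The cause of these changes was not tested. With 4 libraries per group, differences of the size seen for *Egr1*, *Nr4a3*, and *Nr4a1* could not be told from the spread between libraries.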
